A study of Mus musculus with 8 samples.

Results

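The genes described here write, erase or read N6-methyladenosine (m6A) on RNA, and were followed through 8 CUT&RUN peak lists from mouse embryonic stem cells. The genes were Mettl3, Mettl14, Mettl16, Wtap, Alkbh5, Ythdf2, Hnrnpa2b1, Igf2bp1, Igf2bp2 and Igf2bp3. They were taken by name, 10 of the 21900 protein-coding genes of a RefSeq annotation of GRCm38.p6 (the patched form of the mm10 assembly), and all 10 were found there. A gene was counted as having a peak when a deposited peak shared at least 1 bp with the gene as annotated, widened by 2 kb on each side. In CUT&RUN, an antibody bound to a chromatin protein recruits micrococcal nuclease, and the fragments cut free are sequenced. The cells were of strain C57BL/6 and were grown with serum, LIF, the GSK3 inhibitor CHIR99021 and the MEK inhibitor PD0325901. The libraries form 4 groups of 2: METTL14 in Mettl3 Control cells, METTL14 in Mettl3 CKO cells, METTL3 in Mettl14 Control cells and METTL3 in Mettl14 CKO cells. The labels do not spell out CKO, give no allele, Cre driver or inducing agent, and do not name the clones behind a line. Nor do they state whether replicates were separate cultures, so every p-value here measures only the spread between these libraries, which may be technical. Peak lists measure neither RNA nor protein, and leave the genotype labels and the cell type unchecked.

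The m6A mark is laid down in the nucleus by a complex in which METTL3 is the catalytic subunit and METTL14 the RNA-binding partner that supports it. WTAP holds this complex in nuclear speckles, and METTL16 is a separate methyltransferase that acts on structured RNAs such as the Mat2a transcript. ALKBH5 is a demethylase that removes the mark, YTHDF2 binds it and directs the RNA to decay, and HNRNPA2B1 is a nuclear RNA-binding protein described as a reader. The IGF2BP proteins bind and stabilise many m6A-bearing transcripts, and in stem cells the pathway is known for limiting the lifetime of pluripotency transcripts. The comparison of METTL14 with and without Mettl3, and of METTL3 with and without Mettl14, addresses how far the chromatin sites of each protein depend on its partner. Here it is read at the genes of their own pathway.

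METTL14 peaks lay at 7 of the 10 genes in at least 1 library, where 20.8% of all protein-coding genes had one. The genes were chosen with results of these data known, so the higher share is a description only. METTL3 peaks lay at none of the 10, where 1.53% of all genes had one in at least 1 library. Hnrnpa2b1 had a METTL14 peak in all 4 METTL14 libraries and Igf2bp3 in 3 of them. Igf2bp1 and Alkbh5 had a peak in 2 libraries each, and Mettl14, Mettl16 and Wtap in 1 library each. Mettl3, Ythdf2 and Igf2bp2 had no peak in any library. No gene had more than 1 peak in a library, which made 14 peaks in all. Of these, 12 lay within 200 bp of an annotated gene boundary, at 17 to 194 bp, and they belonged to 6 genes. Hnrnpa2b1 gave 4 of the 12 and Igf2bp3 gave 3, with 1 per library. Over all protein-coding genes, 35.1% to 43.2% of gene and peak pairs in the METTL14 lists lay within 200 bp of a boundary. The 200 bp limit was set after the positions were seen.

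**Figure D1:**
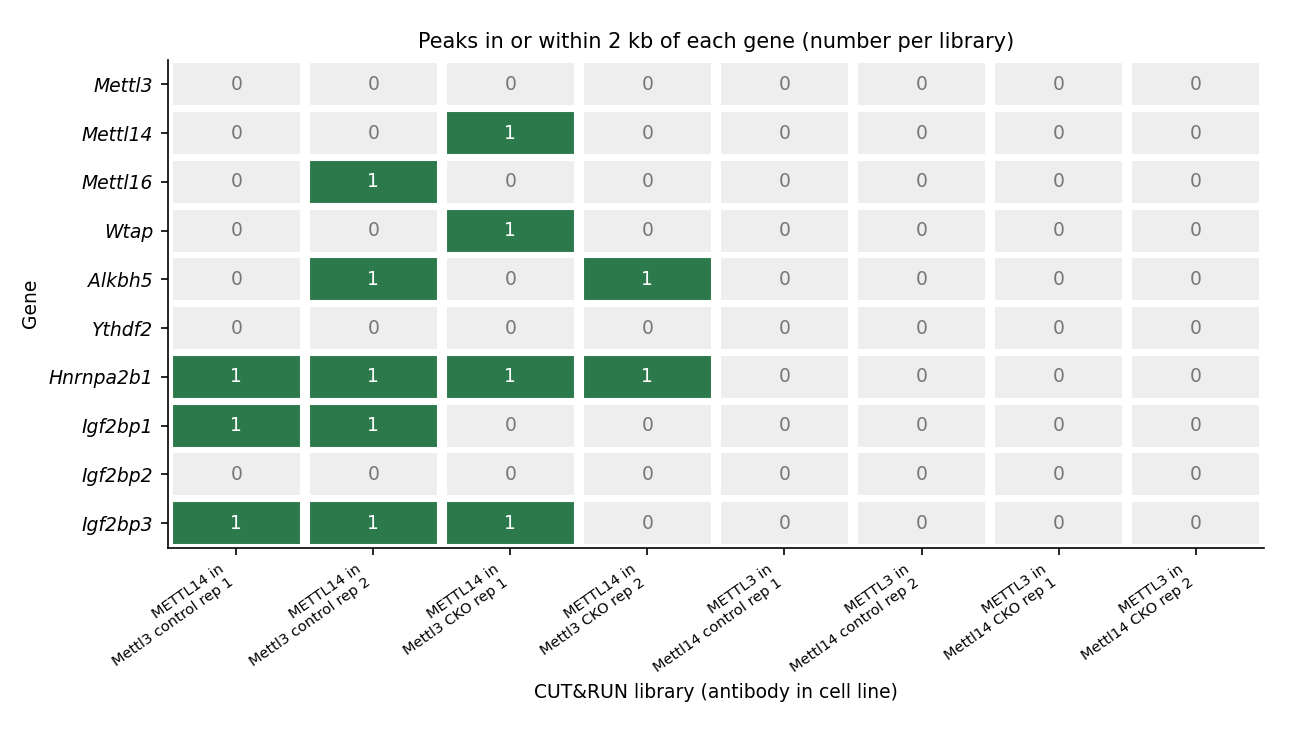
Number of peaks in or within 2 kb of each of the 10 genes (rows) in each of the 8 CUT&RUN libraries (columns), green where there was a peak. Hnrnpa2b1 is filled in all 4 METTL14 libraries and Igf2bp3 in 3, and the 4 METTL3 columns are all 0.

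The lists differed in length, which bears on every count. For METTL14 there were 3129 and 3546 peaks in control replicates 1 and 2, and 3922 and 1439 in Mettl3 CKO replicates 1 and 2. For METTL3 there were 353 and 341 in control and 242 and 344 in Mettl14 CKO replicates. The sequencing depth is unknown, and the deposited score is 1 for every peak. A list therefore says where signal passed the authors' threshold and not how strong it was. Mettl3 CKO replicate 2 stood apart as the shortest METTL14 list, so values with and without it are given.

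Within 2 kb, Hnrnpa2b1 was the most regularly marked of the 10 genes, with a peak in all 4 METTL14 libraries. It spans chr6:51460434-51470048 on the minus strand, so its 5′ end is the boundary with the higher coordinate. Control replicate 1 had its peak at chr6:51470233-51470381, and control replicate 2 at chr6:51470177-51470325. Mettl3 CKO replicate 1 had its peak at chr6:51470065-51470213, and CKO replicate 2 at chr6:51470161-51470309. All 4 lay outside the gene beyond its 5′ end, at 185, 129, 17 and 113 bp in that order.

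All 4 of these peaks overlapped a neighbour, Cbx3, and none overlapped Hnrnpa2b1 itself. Cbx3, which encodes the heterochromatin protein HP1 gamma, starts at chr6:51470154, with 105 bases between the annotated genes, and runs the other way. Both control peaks and the peak of CKO replicate 2 lay wholly inside Cbx3 as annotated (149 of 149 bp), and the peak of CKO replicate 1 had 60 bp inside it. Peak positions alone do not assign the signal to either gene.

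The control peaks shared 93 bp, or 62.4% of a peak, and formed a region called in both control libraries at chr6:51470177-51470381. The Mettl3 CKO peaks shared 53 bp, or 35.6%, and formed a region called in both CKO libraries at chr6:51470065-51470309. The best match was between groups: control replicate 2 and CKO replicate 2 shared 133 bp, or 89.3%. Control replicate 1 and CKO replicate 1 shared no base and lay 19 bp apart. The midpoints of the 4 peaks covered 168 bp. Control midpoints lay 259 and 203 bp beyond the gene and CKO midpoints 91 and 187 bp, in the order of the replicates. Both CKO midpoints were therefore nearer to the gene, although 2 against 2 libraries cannot give a two-sided exact permutation p below 0.333. With a 50% reciprocal overlap in place of 1 bp, the control region was still called and the CKO region was not.

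The stretch between the genes is shown because it is where the Hnrnpa2b1 promoter window and a METTL14 peak meet. It is the part of the RefSeq promoter window (GRCm38.p6) outside the gene, chr6:51470049-51470144, minus strand, 5′ to 3′. Capitals mark the 80 of 96 bases inside the peak of Mettl3 CKO replicate 1.
Hnrnpa2b1: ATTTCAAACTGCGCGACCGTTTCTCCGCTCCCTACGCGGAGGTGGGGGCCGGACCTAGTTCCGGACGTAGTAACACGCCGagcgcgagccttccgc
The other 3 peaks began beyond this stretch, on the Cbx3 side, for which no sequence is printed.

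Igf2bp3 was the next most regular within 2 kb, with a peak in 3 METTL14 libraries. The gene spans chr6:49085218-49215469 on the minus strand. Control replicate 1 had a METTL14 peak at chr6:49215616-49215764, control replicate 2 at chr6:49215611-49215759 and Mettl3 CKO replicate 1 at chr6:49215586-49215734. They lay 147, 142 and 117 bp outside the 5′ boundary. CKO replicate 2 had no peak there. The control peaks shared 144 bp (96.6%), and CKO replicate 1 shared 119 bp with control replicate 1 and 124 bp with control replicate 2. The midpoints covered 30 bp, against 168 bp at Hnrnpa2b1. The RefSeq promoter window of Igf2bp3 belongs to a transcript that starts farther inside the gene and does not reach these peaks.

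Igf2bp3 also had a METTL14 site farther out that the 2 kb window leaves aside. It was called in all 4 METTL14 libraries, at chr6:49218276-49218431 over the controls and chr6:49218280-49218431 over the CKO libraries, about 2.81 kb from the gene. No protein-coding gene overlaps it. This outer site stood earlier in the lists than the inner peak, at 6.65% and 4.54% of the list length in the controls and 2.75% and 9.03% in the CKO libraries. With a window of 5 kb, Igf2bp3 therefore had a METTL14 peak in 4 of 4 libraries in place of 3, and a region called in both CKO libraries. The inner site alone was absent from CKO replicate 2. In the other 3 lists the inner peak stood at places 446, 826 and 348. The CKO replicate 2 list held 1439 peaks, but places may not carry over between lists. Whether list length bears on this absence was not tested.

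**Figure D2:**
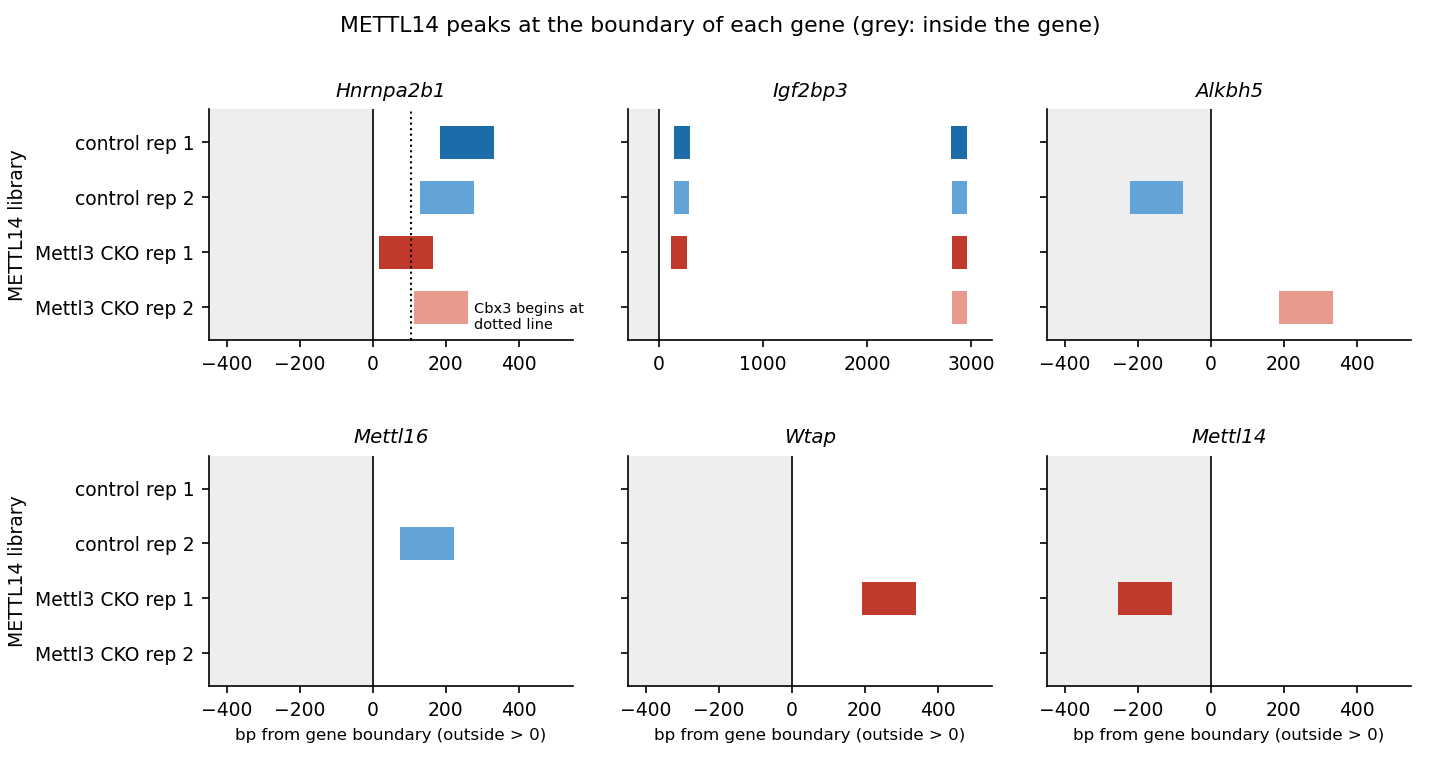
METTL14 peaks at 6 genes, by distance in bp from the annotated 5′ boundary (for Mettl14, whose strand is not in the table, from the boundary with the higher coordinate). Each bar is 1 peak of 1 library, positive values are outside the gene, and the Igf2bp3 panel has a wider axis to show the site at 2.81 kb, present in all 4 libraries.

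Alkbh5, the eraser, had a METTL14 peak in 1 library of each genotype, at different places. The gene spans chr11:60537683-60558512 on the plus strand. Control replicate 2 had its peak at chr11:60537758-60537906, inside the gene and 75 bp from its start. Mettl3 CKO replicate 2 had its peak at chr11:60537347-60537495, 188 bp before the start. The peaks shared no base, with 262 bp between them. Control replicate 1 and CKO replicate 1 had no peak within 68.7 kb and 120 kb of the gene.

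Among the writer genes, no peak was called in both libraries of a group. Mettl16 (chr11:74770815-74826855, plus strand) had 1 METTL14 peak, in control replicate 2, at chr11:74770591-74770739, 76 bp before the gene. Wtap (chr17:12966799-12992543, minus strand) had 1, in Mettl3 CKO replicate 1, at chr17:12992737-12992885, 194 bp beyond its 5′ end. Mettl14 (chr3:123368295-123385990) had 1, also in Mettl3 CKO replicate 1, at chr3:123385735-123385883, inside the gene and 107 bp from the boundary with the higher coordinate. In the other METTL14 libraries the nearest peak was 45.6 to 384 kb from Mettl14 and 6.8 to 599 kb from Wtap. Mettl3 (chr14:52294841-52308741) had none, and the nearest METTL14 peak lay 15.5 to 15.6 kb away in all 4 libraries.

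The promoter stretches of Alkbh5, Mettl16 and Wtap are shown because each was touched by a peak of 1 library. Each is the part of the RefSeq promoter window (GRCm38.p6) outside the annotated gene, 5′ to 3′ on the strand of the gene. Capitals mark the bases inside the peak: 63 of 250 for Alkbh5 (chr11:60537433-60537682, plus strand, peak of Mettl3 CKO replicate 2), 127 of 202 for Mettl16 (chr11:74770613-74770814, plus strand, peak of control replicate 2) and 57 of 250 for Wtap (chr17:12992544-12992793, minus strand, peak of Mettl3 CKO replicate 1).
Alkbh5: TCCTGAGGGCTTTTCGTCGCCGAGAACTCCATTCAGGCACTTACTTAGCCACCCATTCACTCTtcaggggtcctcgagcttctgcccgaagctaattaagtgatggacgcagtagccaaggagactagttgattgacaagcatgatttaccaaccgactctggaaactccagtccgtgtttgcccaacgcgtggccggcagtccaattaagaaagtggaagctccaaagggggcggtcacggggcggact
Mettl16: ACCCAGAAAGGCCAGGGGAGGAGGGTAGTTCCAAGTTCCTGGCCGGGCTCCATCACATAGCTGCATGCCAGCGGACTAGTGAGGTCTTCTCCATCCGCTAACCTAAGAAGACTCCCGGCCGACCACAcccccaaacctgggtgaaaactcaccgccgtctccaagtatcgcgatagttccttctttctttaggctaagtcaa
Wtap: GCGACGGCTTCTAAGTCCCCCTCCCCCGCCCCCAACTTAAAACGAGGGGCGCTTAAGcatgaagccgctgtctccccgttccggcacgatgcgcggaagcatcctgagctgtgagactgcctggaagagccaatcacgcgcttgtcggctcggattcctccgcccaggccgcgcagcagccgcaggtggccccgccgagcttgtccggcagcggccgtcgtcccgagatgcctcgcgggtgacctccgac
In all 3 stretches the peak covers the end farthest from the gene.

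The IGF2BP genes, a family of close relatives, did not share a pattern. Igf2bp3 had the paired sites described above. Igf2bp1 (chr11:95957163-96005944) had METTL14 peaks only within its body, at chr11:95963687-95963835 in control replicate 1 and chr11:95981053-95981201 in control replicate 2. They lay 17217 bp apart, so both control libraries marked the gene without marking the same site. The peak of control replicate 1 lay near the microRNA gene Mir3063 (chr11:95963292-95963383), which sits within Igf2bp1, and shared no base with it. Neither CKO library had a peak within 69.9 kb. Igf2bp2 (chr16:22059009-22163299), whose span is second in length only to Igf2bp3 among the 10, had none, and its nearest METTL14 peaks were 49.3 to 246 kb away. Ythdf2 (chr4:132184916-132212256) also had none, with the nearest METTL14 peak 0.0619 to 1.14 Mb away.

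In each METTL14 list the regular sites, at Hnrnpa2b1 and Igf2bp3, stood earlier than the peaks of the other marked genes. In CKO replicate 2 this rests on 1 peak of Hnrnpa2b1 and 1 of Alkbh5. What the file order stands for is not stated in the sources used here, so a place is given as a description. The Hnrnpa2b1 peaks stood at 19.7% and 12.3% of the list length in the controls and at 15.6% and 50.7% in Mettl3 CKO replicates 1 and 2. The Igf2bp3 peaks stood at 14.3% and 23.3% in the controls and 8.87% in CKO replicate 1. The 7 peaks of Igf2bp1, Alkbh5, Mettl14, Mettl16 and Wtap stood between 54.9% and 90.6%. The Hnrnpa2b1 peak of CKO replicate 2, at place 729 of 1439, was the latest of the regular sites, just beyond the leading 50% of its list.

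**Figure D3:**
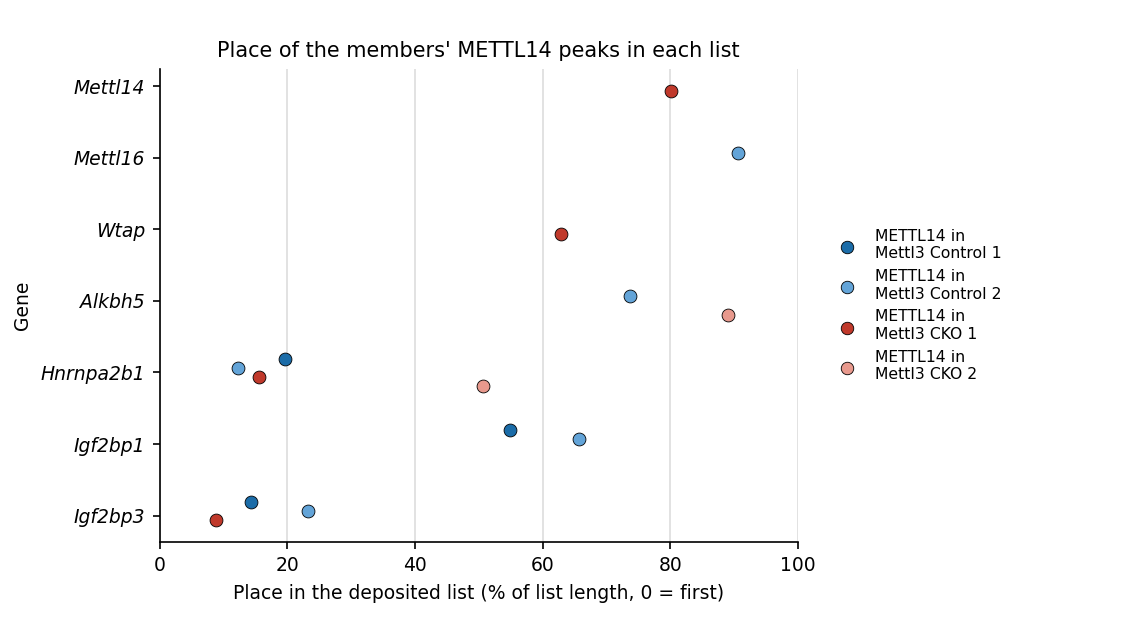
Place of each METTL14 peak of the 10 genes in its deposited list, as a percentage of the list length (0 is the first peak), 1 point per peak, coloured by library. Hnrnpa2b1 and Igf2bp3 lie between 8.87% and 23.3% except for 1 Hnrnpa2b1 peak at 50.7%, and the other 5 genes lie at 54.9% or later.

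By library, METTL14 marked 3 and 5 of the 10 genes in control replicates 1 and 2, and 4 and 2 in Mettl3 CKO replicates 1 and 2. The background over all 21900 protein-coding genes was 9.71%, 11.2%, 12.9% and 4.91% in the same libraries. The gene list was drawn up with results of these data known, so its higher share is a description and supports nothing. Control cells averaged 4 ± 1.41 genes (SD, n = 2), and Mettl3 CKO cells averaged 3 ± 1.41 (SD, n = 2). The difference of -1 was smaller than the spread between replicates (two-sided exact permutation p = 0.667), in a design whose smallest possible p is 0.333. Without CKO replicate 2, or without control replicate 2, it was 0, and without replicate 1 of either group it was -2. Because no gene had more than 1 peak per library, the numbers of peaks and their test were identical.

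Relative to list length, the sign of the difference depended on the setting. Peaks at the 10 genes made up 0.959 per 1000 peaks of control replicate 1 (95% Wilson interval 0.326 to 2.82) and 1.41 of control replicate 2 (0.602 to 3.3). They made up 1.02 per 1000 of CKO replicate 1 (0.397 to 2.62) and 1.39 of CKO replicate 2 (0.381 to 5.05). The groups overlapped, and the difference of 0.0205 per 1000 was not detectable (two-sided exact permutation p = 1). Leaving out CKO replicate 2 gave -0.165, leaving out control replicate 1 gave -0.205, for peaks inside genes only -0.314 and with the leading 50% of each list -0.693 (1.2 in control and 0.51 in CKO cells). The difference was positive, at 0.246 without control replicate 2, 0.205 without CKO replicate 1 and 0.149 with a 5 kb window. No exact permutation p in these settings was below 0.333. The intervals cover counting error only. With every METTL14 list shortened to its first 1439 peaks, each library marked 2 of the 10 genes. These were Hnrnpa2b1 and Igf2bp3 in 3 libraries, and Hnrnpa2b1 and Alkbh5 in CKO replicate 2.

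A stricter reading asks for the same site in both libraries of a group. Regions called in both libraries were found at 2 of the 10 genes in control cells, Hnrnpa2b1 and Igf2bp3, where 3.82% of all protein-coding genes had one. In Mettl3 CKO cells 1 of the 10, Hnrnpa2b1, had one, against 3.15% of all genes. The Igf2bp3 difference rests on 1 library, since CKO replicate 1 had the peak and CKO replicate 2, the short list, did not. Without CKO replicate 2, the remaining CKO library marked Hnrnpa2b1, Igf2bp3, Mettl14 and Wtap. With only 1 library per group required, 5 of the 10 genes were marked in control and 5 in CKO cells, beside 15.5% and 13.9% of all genes, and 3 of them, Alkbh5, Hnrnpa2b1 and Igf2bp3, were marked in both.

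METTL3 peaks were absent from all 10 genes in control and Mettl14 CKO cells alike. Taking 3 counts as the limit that a count of 0 allows, the share could be up to 8.5 and 8.8 per 1000 peaks in control replicates 1 and 2 and up to 12.4 and 8.72 in CKO replicates 1 and 2. The upper 95% Wilson limits, as used for METTL14 above, were 10.8, 11.1, 15.6 and 11.0. All of these are above the METTL14 shares. Peaks of METTL3 were also rare at genes in general, at 0.635% and 0.566% of protein-coding genes in the control replicates and 0.393% and 0.584% in the CKO replicates. Regions called in both METTL3 libraries marked 0.151% of genes in control and 0.164% in CKO cells. With these shares, 0 of 10 does not separate the pathway genes from others. Of the 10 genes Igf2bp3 was the nearest to any METTL3 peak. That METTL3 site lay 20.9 kb from it, at chr6:49236362-49236638 in control replicate 2 and chr6:49236378-49236644 in CKO replicate 1.

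In the rest of the pathway a smaller share of genes had a METTL14 peak. The 10 genes and these further genes were chosen with results of these data known. The difference between them is therefore a description, supports nothing and was not tested. A wider list held 22 further genes for complex subunits, other methyltransferases, the eraser Fto, YTH proteins, other readers and the enzymes that supply S-adenosylmethionine. Of these 22, 3 had a METTL14 peak in control replicate 1 (13.6%), 3 in control replicate 2 (13.6%), 4 in CKO replicate 1 (18.2%) and 1 in CKO replicate 2 (4.55%). The shares over all genes in these lists were 9.71%, 11.2%, 12.9% and 4.91%. Among the 22, 15 had no METTL14 peak in any library and 2 had one in 3 libraries, where 79.2% of all protein-coding genes had none and 2.87% had one in 3. Of the 10 genes, 3 had none, and 1 had one in all 4 libraries, where 2.53% of all genes did.

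Rbm15, which encodes a subunit that brings the writer complex to its RNA targets, was the only one of the 22 with a region called in both libraries of a group. The region was in Mettl3 CKO cells, at chr3:107333372-107333561, inside the gene as annotated (chr3:107305511-107334460). Control replicate 2 had 2 peaks there, at chr3:107333326-107333474 and chr3:107333731-107333879, and control replicate 1 had none. Prrc2a, a proposed reader, had a peak in 3 METTL14 libraries, but the control peaks were at opposite ends of the gene. Fto was the 1 gene of the whole list with METTL3 peaks, at chr8:91337640-91337884 and chr8:91523848-91524092 in Mettl14 CKO replicate 2 and in no other library. Its span of 355067 bp is the longest of the list.

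**Figure D4:**
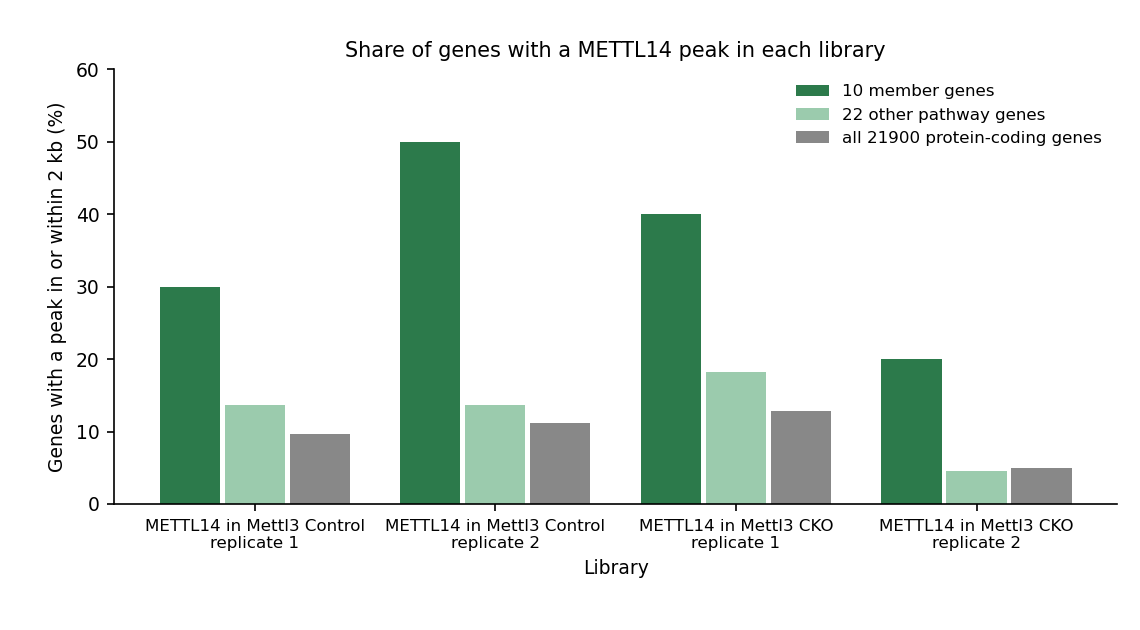
Share of genes with a METTL14 peak in or within 2 kb in each METTL14 library, for the 10 genes, the 22 other pathway genes and all 21900 protein-coding genes (bars from 0, 1 library each, no error bar). The 10 genes lie between 20% and 50%, the 22 others between 4.55% and 18.2%, and all genes between 4.91% and 12.9%. Both gene lists were chosen with results of these data known, so their difference is a description only.

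At the 5 marked genes whose strand is in the promoter table, Hnrnpa2b1, Igf2bp3, Alkbh5, Mettl16 and Wtap, all 11 peaks were nearer to the 5′ boundary than to the 3′ boundary. Hnrnpa2b1 gave 4 of these peaks and Igf2bp3 gave 3, with 1 per library. The matching share over all protein-coding genes was not computed, so the count sets the 10 genes apart from no others. The Igf2bp1 peaks lay 6524 and 23890 bp inside the gene, and the strand of Mettl14 is not in the table. Over the peaks of the 10 genes, the median distance to a boundary in the control replicates was 185 and 129 bp, and in the CKO replicates it was 112 and 150 bp. Over all protein-coding genes with a peak the medians in the same order were 594, 437, 363 and 285 bp. Peaks within 200 bp of a boundary made up 35.1% to 43.2% of all gene and peak pairs in the 4 lists. With 2 to 5 peaks per library the difference was not tested.

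The promoter windows held more CG dinucleotides than the median window, with or without a peak. A window runs from 250 bases before a transcript start to 50 after it. Windows were found for 8 of the 10 genes, all but Mettl14 and Igf2bp1, and they held 17 to 48 CG dinucleotides, where the median of 32851 windows was 7. Their percentiles among all windows ran from 69.4 to 98.9. The windows compared covered 27025 genes, more than the 21900 protein-coding genes, so some belonged to genes of other kinds. Of the unmarked genes, Mettl3 held 17, the lowest, Ythdf2 32 and Igf2bp2 47. Of the marked genes, Alkbh5 held 18, Mettl16 20, Igf2bp3 25, Hnrnpa2b1 33 and 34, and Wtap 34, 35 and 48 in its 3 windows. Among these, the Igf2bp3 window and the Wtap window with 48 were touched by no peak. Each of the rest was touched by a peak of 1 library. The GC box GGGCGG (either strand, in 35.7% of all windows) was found at Alkbh5, Wtap, Ythdf2 and Igf2bp2. The CCAAT box (37.4%) was found at Hnrnpa2b1, Igf2bp3, Alkbh5, Mettl16 and Wtap. GGACT, the core of the m6A consensus in RNA read here as DNA (45.5%), was found at Hnrnpa2b1, Alkbh5, Mettl16 and Wtap. CCGGAAG, an ETS motif (8.86%), was found only at Mettl3, and the E-box CACGTG (7.15%) only at Igf2bp3. TATAAA (13.6%) and GCGCATG (3.91%), the core of the NRF1 motif, were in none of these windows. No motif searched contains another. In the capitals of the printed stretches, GGACT occurs for Mettl16 and GGGCGG and GGACT, on either strand, for Wtap. A match is a description of letters and not a binding site.

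Many genes had the same presence pattern as the regular members. Besides Hnrnpa2b1, 508 protein-coding genes had a peak in all 4 METTL14 and no METTL3 library. Nearest to it by list place, after its neighbour Cbx3 with the same peaks, were Abhd11 (places differing by 4.51 percentage points summed over the 4 lists) and Fgf9 (15.1). Besides Igf2bp3, 373 genes shared its pattern of 3 libraries, and the nearest were Zic4, Lyrm4 and Fars2 (7.36 points each over 3 lists), of which Lyrm4 and Fars2 stood at the same places. Likeness here is over 8 libraries of peak calls only.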

How the data were processed

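Each of the 8 CUT&RUN libraries had its own peak list in mm10. Tools named in the submitters' processing notes, without saying what each did, were HOMER, SAMtools, Bowtie2 2.4.1, Trimmomatic 0.38 and CASAVA. How peaks were thresholded, and against what background, is not given in the sources used here. The deposited score was 1 for every peak and was not used, so a list gives positions only. BED starts were converted to 1-based positions. Peaks were 149 bp wide in METTL14 lists and 245 to 285 bp in METTL3 lists, apart from 2 narrower peaks in all. Genes, promoter windows and their strand came from RefSeq tables for GRCm38.p6, and exons were not analysed here. Overlap was 1 bp, and a replicated region was the union of overlapping peaks of both libraries of a group. Group means were compared by two-sided exact permutation over the 4 libraries of an antibody. Overlap and test code was tested on simulated data. Genes named were the 10 members, pathway genes with a replicated region, neighbours sharing a peak, and up to 3 genes of like pattern. Prrc2a, Fto, and genes at sites beyond 2 kb were named after their values were seen. The members and lists were chosen with earlier results of these data known. Analyses used Python 3.11.15 with pandas 2.3.3 and numpy 2.4.6.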

Additional observations from a re-analysis of the deposited data

How the results depend on the processing

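The number of the 10 genes with a METTL14 peak, and equally the number of peaks, differed by -1 (CKO minus control). With a 5 kb window it was -0.5 for genes and -1 for peaks. Both differences were 0 with lists of equal length, and from -2 to 0 when 1 library was left out. They were 0 without control replicate 2 or without CKO replicate 2. Per 1000 peaks the difference of 0.0205 became 0.149 with a 5 kb window, -0.314 for peaks inside genes only, -0.693 with the leading 50% of each list and 0 with lists of equal length. It ran from -0.205 to 0.246 when 1 library was left out, and was -0.165 without CKO replicate 2. No exact permutation test passed 0.05 under any of these settings, which none of them could. The labels do not say whether same-numbered libraries were paired. Their deviations correlated at 0.000119 over 4546 genes for METTL14 and at -0.0477 over 334 genes for METTL3. These were genes with a peak in any library of the antibody, and such values cannot decide whether a culture or batch was shared. With the replicate block the differences stayed -1 and 0.0205 (exact permutation p = 1, smallest possible 0.5). Genes with a replicated METTL14 region numbered 2 in control. They numbered 3 with a 5 kb window, 5 with either library, 0 inside genes only, and 3 to 5 with 1 library. In CKO cells they numbered 1, and 0 with a 50% reciprocal overlap, inside genes only or in the leading 50% of each list. They numbered 2 with a 5 kb window, 5 with either library, and 2 to 4 with 1 library. METTL3 counts were 0 under all settings run, and its replicate block difference was 0. Depth is unknown, and short lists limit what an absent peak can show.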

Other observations

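Regions beyond 2 kb of the writer genes Mettl3 and Mettl16, up to 20000 bp away, were also called in both libraries of a METTL14 group. Near Mettl3 the site lay where the genes Rab2b and Tox4 begin on opposite strands and overlap, at chr14:52279106-52279373 in control and chr14:52279093-52279259 in Mettl3 CKO cells. It stood at 79.7% and 36.5% of the list length in the control replicates and at 19.9% and 29.8% in the CKO replicates. Tox4 itself runs into the annotated span of Mettl3. Near Mettl16 the site lay 3.68 kb beyond the gene, at chr11:74830533-74830797 in control cells, before the start of Mnt, which encodes a partner of MAX. Mettl3 CKO replicate 1 had peaks there too, the nearest 3.24 kb from Mettl16, and CKO replicate 2 had none within 705 kb of Mettl16.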
